A study of Mus musculus with 38 samples.

Results

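The replication-dependent histone genes lie in clusters and code for the H1 linker histones and the H2A, H2B, H3 and H4 core histones. Here they were taken as the rows whose gene symbol begins with Hist1h, Hist2h, Hist3h or Hist4h and whose biotype is protein-coding, 64 of the 23125 genes in the table. They comprised 6 H1, 18 H2A, 17 H2B, 12 H3 and 11 H4 genes, and 2 further rows of such a symbol but another biotype were left out. RNA was sequenced from the polysome and the non-polysome part of sucrose gradients of mouse oocytes and embryos at 6 stages, with 3 libraries per stage and fraction. The stages were GV oocytes (meiotic prophase, isolated with the phosphodiesterase inhibitor IBMX), MII oocytes (second meiotic metaphase, matured in culture), zygotes in interphase (zygote) or in M-phase (zygote M), and embryos of 2 cells in interphase (two-cell) or in M-phase (two-cell M). All came from hormone-stimulated ICR mice, the oocytes and interphase embryos are labelled WT, the females were at least 6 weeks old per the study's methods, and the embryos came from mating within the strain. The M-phase embryos were synchronized with nocodazole, a microtubule inhibitor, and the interphase embryos were not, so M-phase and nocodazole cannot be told apart in zygote M or two-cell M. The treatment label of these embryos is M-phase of meiosis, whereas the study's methods describe nocodazole-treated cleavage-stage embryos, and the stage names here follow the sample titles. All samples were treated with cycloheximide, which holds ribosomes on mRNA. Of the 10 fractions of each gradient the lighter 5 were pooled as non-polysome and the heavier 5 as polysome. Replicates carry letters, and the study calls its sequencing replicates biological. Since the sources used here do not say that a letter marks separate animals, p-values measure the spread between libraries only.

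Replication-dependent histone mRNAs supply the proteins that package newly made DNA. In cycling somatic cells they accumulate in S-phase and are degraded when replication ends. Most of them end in a conserved stem-loop instead of a poly(A) tail, and the stem-loop is bound by SLBP, the protein needed for their 3′ processing, stability and translation. Oocytes store histone mRNA and protein for the first cleavages, which run on maternal products until the embryonic genome is activated, in the mouse mainly at the two-cell stage.

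Values are FPKM (fragments counted relative to transcript length and to the mapped total), so each is relative to the rest of its library and not an amount per oocyte or embryo. The table has a floor of 0.01 FPKM, its lowest value, which is read here as no measurable signal. A gene at that value is called listed at the floor. Libraries held from 8538 to 17066 genes above the floor, with the fewest in non-polysome two-cell M (8538 to 9271) and the most in polysome zygotes (16802 to 17066). Read totals are not in the table, so the depth is unknown and no counting error can be given. The summed level of the 8 oocyte markers ran from 4023 to 5361 FPKM in polysome GV libraries down to 49.1 to 187 FPKM in polysome two-cell M libraries. The 6 measured granulosa or cumulus markers summed to at most 23.5 FPKM in any library and the 3 measured sperm markers to at most 6.32 FPKM. The 6 two-cell markers summed to 414 to 709 FPKM in non-polysome two-cell libraries, but were also present in the other groups (176 to 323 FPKM in polysome GV).

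The 3′ stem-loop carries the shared biology of these mRNAs, and its variants also tell the H4 genes from the others, so 1 gene of each of 7 variants is shown. It was searched for in the transcript models (GENCODE M21 on GRCm38) as GG, 3 pyrimidines and T, a 4-base loop that begins with T and has no G in its middle bases, and the exact complement of the first 6 bases. Capitals mark the paired stem and lower case the loop, all 5′ to 3′ on the gene's strand. Each lies in the 3′ UTR of the gene's only exon.
Hist1h2ap, chr13:21833029-21833044, minus strand: GGCTCTtttcAGAGCC
Hist1h2bk, chr13:22036300-22036315, plus strand: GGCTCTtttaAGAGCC
Hist1h3g, chr13:23535889-23535904, plus strand: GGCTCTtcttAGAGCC
Hist1h4c, chr13:23698089-23698104, minus strand: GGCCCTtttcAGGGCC
Hist1h4i, chr13:22040966-22040981, minus strand: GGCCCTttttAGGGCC
Hist1h4a, chr13:23760800-23760815, minus strand: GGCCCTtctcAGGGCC
Hist1h4b, chr13:23757366-23757381, plus strand: GGTCCTtttcAGGACC

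The stem-loop was found after the stop codon in 44 of the 64 genes, in 8 distinct sequences. For comparison, 60 of 21877 protein-coding genes (0.274%) held it anywhere in a transcript. The sequence printed for Hist1h2ap was the most common and was shared by 25 genes of the H1, H2A, H2B and H3 classes. The sequence of Hist1h4c was shared by 7 H4 genes, and that of Hist1h2bk by 6 H1, H2B and H3 genes. No match was found for 20 genes, of which 14 have a model that ends within 2 bases of the stop codon and so holds no 3′ UTR to search. In 22 genes the model runs more than 100 bases past the stem-loop and in 22 it ends nearer to it. That of Hist1h2ap ends 3 bases after the stem-loop, and that of Hist1h1d runs 4884 bases past it and holds the polyadenylation signal AATAAA, as do 17 of the 64 genes after the stop codon. These lengths may bear on the measurement, since the SMART-Seq v4 kit primes with oligo-dT and reaches a transcript through a run of A, but any effect of this on the values was not tested.

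Most of these genes are intronless neighbours of one another. The positions of all 64 match GENCODE M21, with 52 genes on chromosome 13, 9 on chromosome 3, 2 on chromosome 11 and 1 on chromosome 6. A single exon holds 59 of them. Many are near-identical in their coding part, and 27 of the 64 share at least 50% of their 100-base windows with another gene. Of the windows of Hist1h2ap (chr13:21833026-21833507, minus strand), 92.2% are found in other genes, among them other H2A genes, and of those of Hist2h2aa1 (chr3:96245497-96246082, plus strand) 100%. How reads with several matches were counted is not given in the sources used here, so the split of reads among such copies is uncertain, and values for genes such as Hist1h2ap, Hist1h2ao, Hist1h2an, Hist1h2ah, Hist1h2ad, Hist2h2aa1, Hist2h2bb, Hist2h3b, Hist2h3c2, Hist1h4b and Hist1h2bk are to be read as those of a copy within a near-identical group.

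RefSeq promoters (GRCm38.p6, 250 bases before to 50 bases after the start) were matched for 59 of the 64 genes. The letters TATAAA, searched on both strands, were in 33 of them (55.9%) and in 13.6% of all 32851 promoters. CCAAT was in 52 (88.1%), against 37.4% of all promoters. By class, CCAAT was in all matched H1, H2A, H2B and H3 promoters and in 3 of 10 H4 promoters. ATTTGCAT, the octamer known from H2B promoters, was in 7 of 17 H2A and 6 of 16 H2B promoters and in none of the H1, H3 or H4 promoters, against 1.74% of all promoters. ATTTGCAT and the reverse of CCAAT can share their outer bases, and overlaps were not removed. Windows of some neighbouring H2A and H2B genes on opposite strands cover largely the same DNA, such as Hist1h2ae (chr13:23571171-23571470) and Hist1h2bg (chr13:23571150-23571449). A site there is counted for both genes, so for all 3 motifs the promoters counted are not separate sites.

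The levels of the 64 genes were very unequal. The minimum for testing, 0.1 FPKM in the geometric mean of all 36 libraries, was passed by 38 genes (5 H1, 11 H2A, 7 H2B, 7 H3 and 8 H4). The remaining 26 had mean polysome levels of at most 0.906 FPKM, although single polysome libraries reached 14.5 FPKM. Among them was Hist1h1t, the testis H1, listed at the floor in 34 of 36 libraries. A mean polysome level of at least 1 FPKM was reached by 35 genes. Just 3 genes, Hist1h2ap, Hist1h4a and Hist1h4d, were above the floor in all 36 libraries. In the plot of all 38 genes by library many rows alternate between measurable values and the floor, and Hist1h1a and Hist2h2aa1, high in most libraries, also reach the floor in non-polysome two-cell M.

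**Figure D1:**
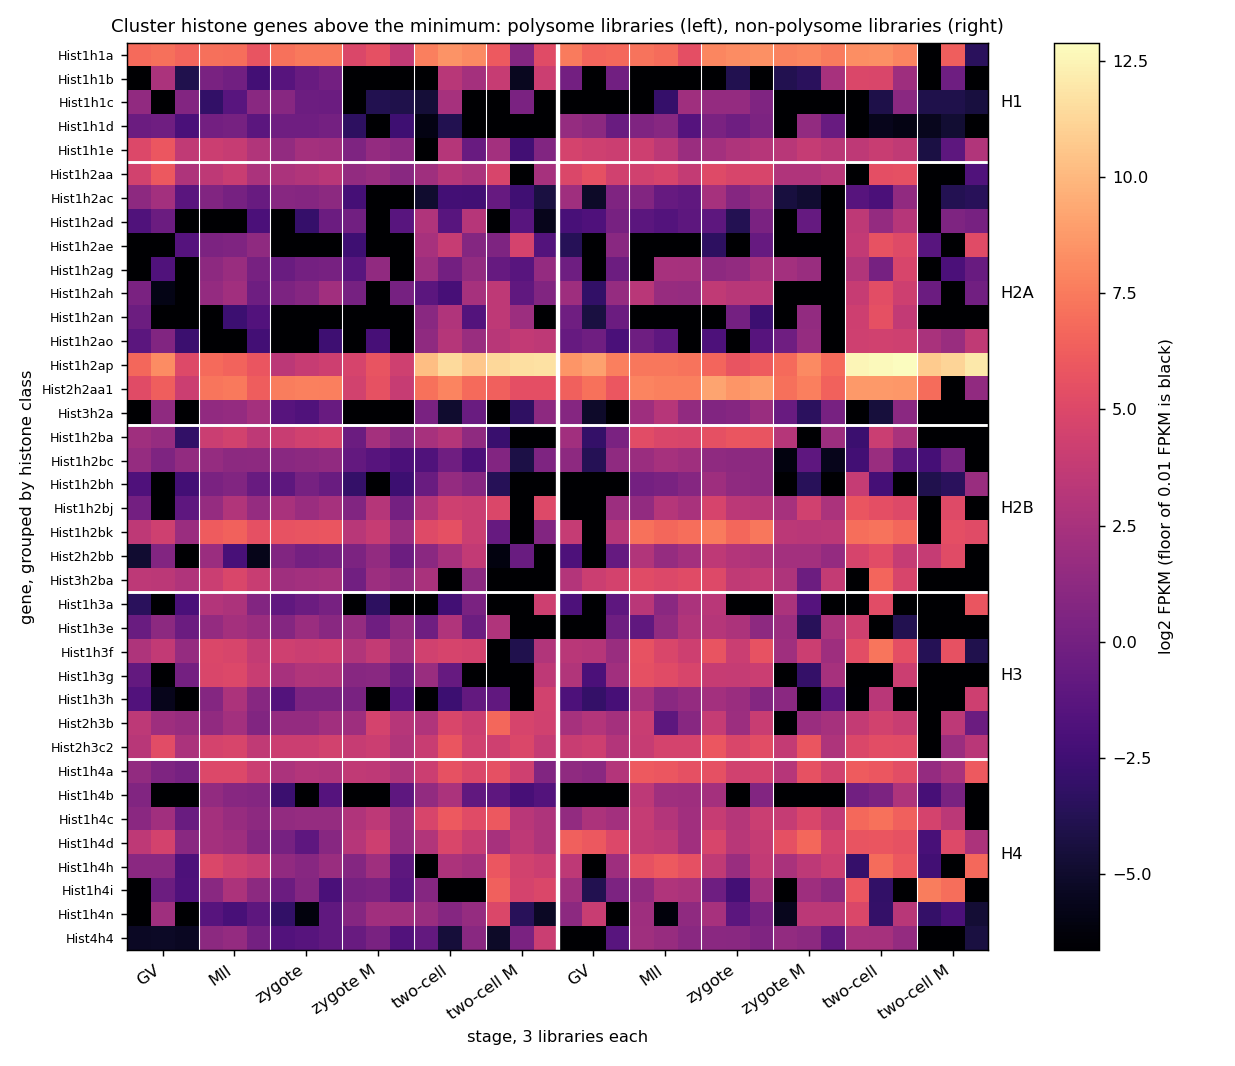
Log2 FPKM of the 38 cluster histone genes that passed the minimum (rows, grouped by class) in each of the 18 polysome (left) and 18 non-polysome (right) libraries, ordered by stage. Black marks the floor of 0.01 FPKM, and the brightest row is Hist1h2ap in both two-cell stages.

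By group mean H2A was the most abundant class at every stage in both fractions, though not in each library. Polysome GV C had 60.5 FPKM for H2A and 110 FPKM for H1. A single gene, Hist1h2ap, made up most of H2A in two-cell embryos. Without it H1 had a higher mean than H2A in polysome GV (153 against 80.1 FPKM) and polysome two-cell (290 against 200 FPKM), but not at the other stages in polysomes. Hist1h2ap had 104, 292 and 34.4 FPKM in polysome GV, 111, 90.2 and 56.1 in MII, 10.6, 14.9 and 18.7 in zygotes and 25.8, 53.3 and 20.0 in zygote M. In polysome two-cell libraries it had 1240, 2758 and 1568 FPKM and in two-cell M 2559, 3174 and 3428 FPKM. The 6 libraries from two-cell embryos were all above the 12 from earlier stages. The order of the means ran from two-cell M (3054 ± 447 FPKM, SD, n = 3) and two-cell (1855 ± 798) through GV (143 ± 133), MII (85.9 ± 27.9) and zygote M (33.0 ± 17.8) to the zygote (14.7 ± 4.06), and GV overlapped both MII and zygote M. In the non-polysome fraction the levels were 382, 520 and 202 FPKM in GV, 164, 166 and 145 in MII, 99.6, 55.2 and 69.0 in zygotes and 113, 282 and 111 in zygote M. They then reached 6116, 6765 and 7357 FPKM in two-cell and 1830, 2286 and 4124 FPKM in two-cell M.

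**Figure D2:**
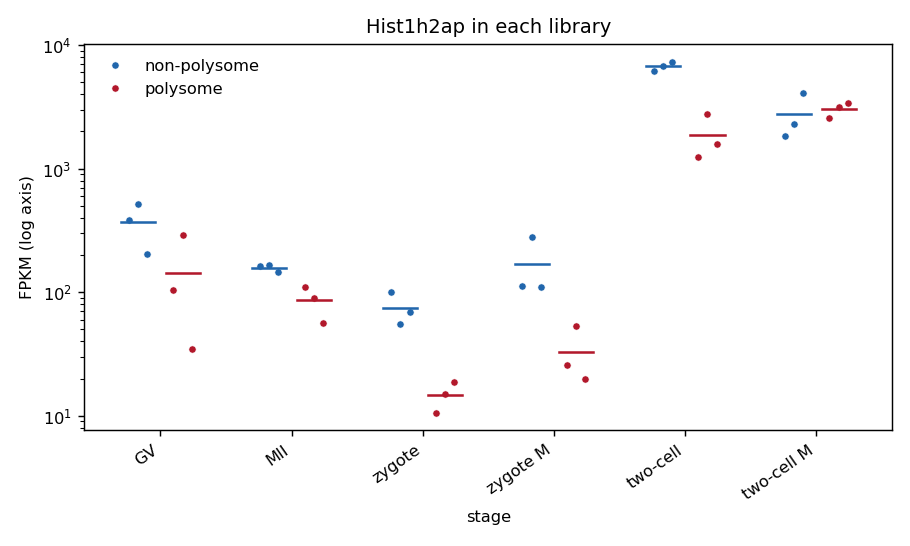
FPKM of Hist1h2ap (log axis) in each of 36 libraries by stage, non-polysome in blue and polysome in red. Points are libraries and short lines are means of 3. The highest mean is 6746 FPKM in non-polysome two-cell and the lowest 14.7 FPKM in polysome zygotes.

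Hist1h2ap alone accounted for 71.3% of the summed FPKM of the 64 genes in polysome two-cell libraries, 87.4% in polysome two-cell M and 79.8% in non-polysome two-cell. The 64 genes together made up 0.380% of the library FPKM in polysome GV, 0.524% in MII, 0.608% in zygotes, 0.178% in zygote M, 2.38% in two-cell, with 2.61% in two-cell M. In non-polysome two-cell they reached 5.47%. Without Hist1h2ap the polysome shares of two-cell and two-cell M were 0.686% and 0.333%.

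Hist2h2aa1 was the next H2A gene. Its polysome levels were 36.7, 77.6 and 18.3 FPKM in GV, 153, 173 and 72.6 in MII, 198, 214 and 207 in zygotes, 22.6, 49.4 and 15 in zygote M, 138, 234 and 112 in two-cell and 82.9, 43.7 and 45.0 in two-cell M. It exceeded Hist1h2ap in each polysome zygote library, and in two-cell libraries the order was the reverse. Hist1h2aa, a testis H2A, had polysome means of 30.3 ± 28.6 FPKM in GV, 11.3 ± 4.85 in MII, 7.92 ± 1.89 in zygotes, 2.77 ± 0.665 in zygote M and 6.50 ± 2.28 in two-cell (SD, n = 3). In two-cell M its values ran from the floor to 26.8 FPKM. Hist1h2ae and Hist1h2ao had mean polysome levels of 3.06 and 2.84 FPKM over the 18 libraries.

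The linker histone class was led by Hist1h1a, whose polysome levels were 115, 132 and 96.4 FPKM in GV, 132, 128 and 54.0 in MII and 140, 178 and 171 in zygotes. They were 29.9, 46.9 and 13.2 FPKM in zygote M, 209, 359 and 273 in two-cell and 66.6, 1.70 and 36.6 in two-cell M. Both M-phase embryo groups lay below all interphase embryo libraries. Hist1h1a made up 74.6% of the class sum in polysome GV and 96.6% in polysome two-cell. Hist1h1e had 31.3, 60.9 and 12.1 FPKM in polysome GV and 2.87, 4.89 and 4.46 FPKM in zygotes, without overlap of the groups, and Hist1h1b averaged 3.23 FPKM over the polysome libraries.

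H2B was led by Hist1h2bk, with 11.7, 20.2 and 3.64 FPKM in polysome GV, 72.2, 87.1 and 45.8 in MII, 51.2, 53.0 and 57.3 in zygotes, 9.58, 15.5 and 3.54 in zygote M and 35.8, 47.4 and 17.2 in two-cell. In two-cell M it had 0.647, the floor and 1.61 FPKM. Hist1h2ba, the testis H2B, had 4.31, 3.11 and 0.117 FPKM in GV, 16.7, 22.0 and 11.9 in MII, 15.7, 20.8 and 24.0 in zygotes, 0.748, 5.12 and 2.05 in zygote M, 5.5, 8.45 and 2.53 in two-cell and 0.147, the floor and the floor in two-cell M. For both genes all MII and zygote libraries lay above all GV, zygote M and two-cell M libraries, and for Hist1h2ba they lay above the two-cell libraries as well. Hist1h2bj went another way, with its highest polysome levels in two-cell (8.2, 20.1 and 17.2 FPKM) and, in 2 of 3 libraries, two-cell M (29.7 and 32.9 FPKM, with the third at the floor).

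H3 and H4 were spread over more genes. Among H3 genes Hist2h3c2 averaged 20.9 FPKM over the polysome libraries, Hist2h3b 15.3, Hist1h3f 14.0, Hist1h3g 6.70 and Hist1h3e 2.52. Hist2h3c2 had polysome means from 13.5 ± 5.07 FPKM in zygote M to 31.8 ± 22.9 in two-cell. Among H4 genes the polysome averages were 17.0 FPKM for Hist1h4a, 14.5 for Hist1h4c, 10.8 for Hist1h4h, 8.88 for Hist1h4i and 8.82 for Hist1h4d. By group mean the H4 class sum in polysomes was lowest in zygotes (14.4, 15.9 and 17.4 FPKM) and highest in two-cell M (291, 91.6 and 81.1 FPKM), where 1 library lay far above its group. The leading H4 gene changed from Hist1h4d in GV (60.5% of the class sum) to Hist1h4a in MII (42.3%), Hist1h4c in two-cell (41.7%) and Hist1h4i in two-cell M (30.3%).

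**Figure D3:**
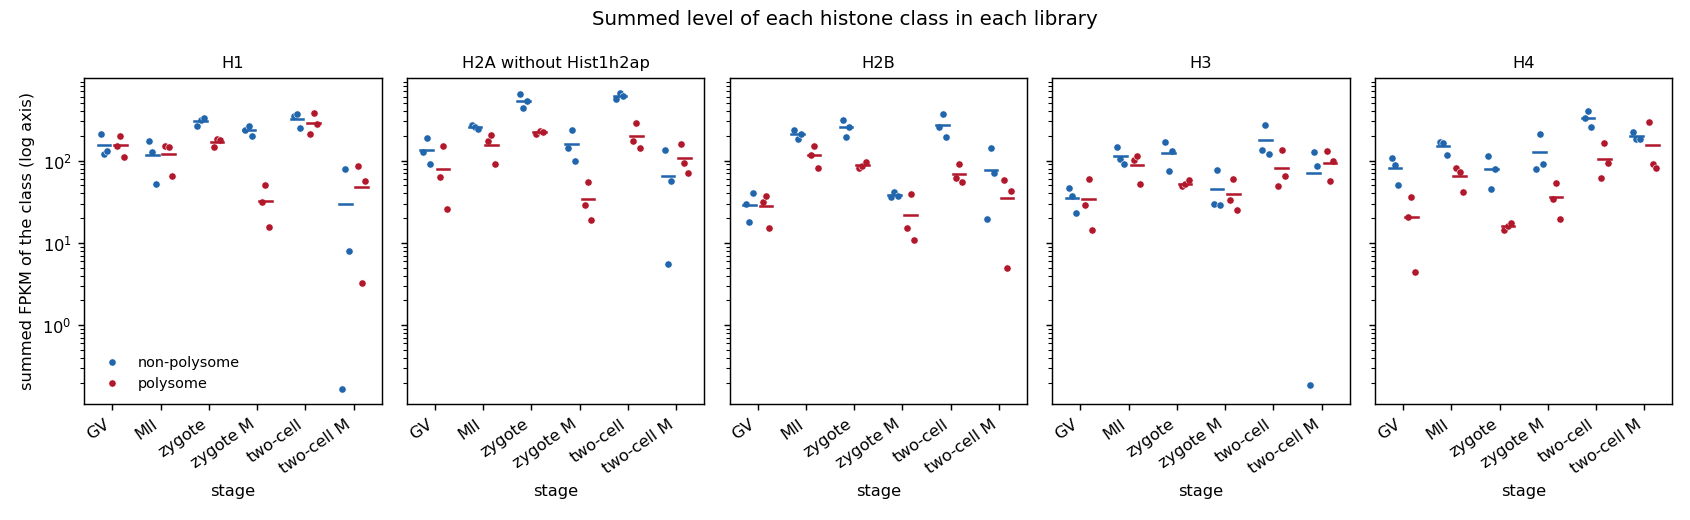
Summed FPKM of each histone class (log axis) in each library by stage, non-polysome in blue and polysome in red, with short lines at the means of 3. H2A is drawn without Hist1h2ap, which would otherwise set its scale, and 2 non-polysome two-cell M points fall below 1 FPKM (H1 and H3).

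Differences between stages within polysomes were tested with limma on log2 FPKM over all 36 libraries and 7967 genes. Calls required a fold change over 2 together with a p adjusted by Benjamini-Hochberg over all tested genes that was under 0.05. The residual SD of the median gene was 1.63 on the log2 scale, so single genes had to move far to be called. Of the 38 tested cluster genes 19 had a stage effect in polysomes (moderated F-test), against 62.9% of all genes. Hist1h2ap had the largest F of the 38 (71.0, adjusted p = 1.38e-12). The comparisons share groups (GV, MII and the interphase embryos each enter several), so their counts are not independent of one another. In comparisons of 2 groups no fold change is given where a group is listed wholly at the floor, and where part of it is, the fold change rests on the floor value. Overlap of groups is described for single genes only. The shares of all genes without overlap, or with a positive change, were not computed.

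From GV to MII, the step of meiotic maturation, 2 cluster genes were called, both H4 and both higher, against 6.11% of all genes called. As a check of the labels, chosen after its values were seen, Plat and Ccnb1, whose mRNAs are known to be taken up by polysomes during maturation, were read beside them. Plat had 6.43, 6.03 and 9.51 FPKM in polysome GV and 96.7, 107 and 51.3 in MII, and Ccnb1 had 32.8, 31.6 and 47.8 and 122, 108 and 132, so all MII libraries lay above all GV libraries. Hist1h4a, a core H4 gene, had 2.85, 1.39 and 1.10 FPKM in GV and 32.1, 32.6 and 17.0 FPKM in MII, a log2 change of 4.0 ± 0.94 (SE, adjusted p = 0.00734, limma). Hist4h4, the H4 gene on chromosome 6, rose from 0.0248, 0.0272 and 0.0241 FPKM, just above the floor, to 2.25, 3.03 and 1.02 FPKM (6.23 ± 1.54, adjusted p = 0.0107). Groups did not overlap for either gene. For the 38 genes the median was 1.80 on the log2 scale and 29 were positive, against a median of 0.18 over all genes. By class the medians were 0.39 for H1, 0.89 for H2A, 2.79 for H2B, 1.83 for H3 and 4.14 for H4. Hist1h2ap was not called (-0.29 ± 0.53, adjusted p = 0.846), and its sign turned (0.47) without polysome GV B. The count was 1 without polysome MII B (Hist4h4 lost, adjusted p = 0.0560), 4 without polysome GV A, and 9, all higher, in a fit of the 6 libraries alone (27.1% of all genes called).

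In M-phase zygotes 1 gene was called against interphase zygotes, with 5.75% of all genes called. It was Hist1h2ac, an H2A gene whose model runs 2010 bases past the stem-loop, at 1.90, 1.88 and 2.26 FPKM in zygotes and 0.205 FPKM, the floor and the floor in zygote M (log2 change -6.19 ± 1.45, adjusted p = 0.00668). The 38 genes had a median of -1.17, against -0.43 over all genes, and 12 of 38 were positive. H1 and H2B had the lowest medians (-4.05 and -2.56), and H4 the highest (0.60). Hist1h1a, with 29.9, 46.9 and 13.2 FPKM against 140, 178 and 171, lay at -2.62 ± 1.65 and was not called (adjusted p = 0.502). In a fit of these 6 libraries alone, which takes no spread from the other stages, 2 cluster genes were higher and 14 lower, among them 4 of 5 H1 and 4 of 7 H2B genes, against 33.1% of all genes called. The call of Hist1h2ac was lost without polysome zygote M B (adjusted p = 0.0563) or polysome zygote M C (0.0503).

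In M-phase two-cell embryos 7 cluster genes fell and 1 rose against interphase two-cell embryos, 21.1% of the 38 tested against 36.3% of all genes. Of the 7 that fell 5 were H2B genes, out of 7 H2B genes tested. Hist1h2bk fell from 35.8, 47.4 and 17.2 FPKM to 0.647, the floor and 1.61 FPKM (-7.14 ± 2.21, adjusted p = 0.0129, limma). Hist1h2ba fell from 5.5, 8.45 and 2.53 FPKM to 0.147 FPKM, the floor and the floor (-7.64 ± 1.80, adjusted p = 0.00155). Neither gene's groups overlapped. Hist1h2bh changed by -6.29 (adjusted p = 0.00569) and Hist2h2bb by -6.81 (adjusted p = 0.0161). Hist3h2ba (adjusted p = 0.0299) is listed at the floor in all 3 two-cell M libraries. The other H2B genes, Hist1h2bc and Hist1h2bj, were not called.

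**Figure D4:**
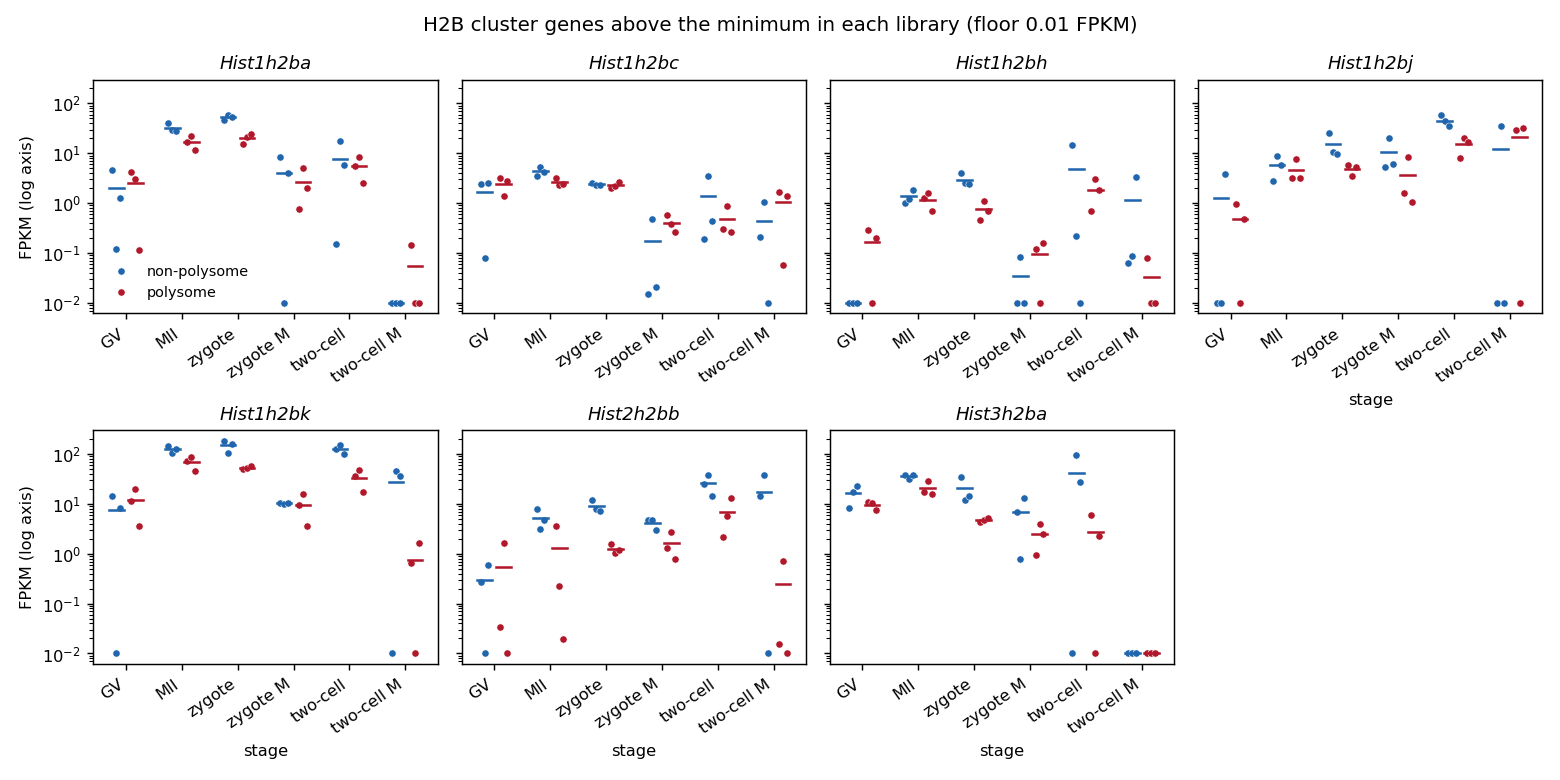
FPKM (log axis) of the 7 tested H2B genes in each library by stage, non-polysome in blue and polysome in red, with short lines at the means of 3. The lowest points sit at the floor of 0.01 FPKM, where all 6 two-cell M libraries lie for Hist3h2ba.

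Outside H2B, Hist1h3f fell from 20.5, 25.8 and 23.4 FPKM to the floor, 0.0650 and 7.62 FPKM (-7.08 ± 1.73, adjusted p = 0.00214), and the H2A gene Hist1h2ad, named after its values were seen, changed by -6.06 (adjusted p = 0.0260). Hist1h4i was the only one to rise, from 1.82 FPKM, the floor and the floor to 84.9, 24.6 and 31.1 FPKM (9.47 ± 2.96, adjusted p = 0.0134). Hist1h2ap, already at 1240 to 2758 FPKM, lay at 2559 to 3428 FPKM in two-cell M, where groups overlapped (0.79 ± 0.53, adjusted p = 0.249). The median of the 38 genes was -1.24, close to the -1.17 over all genes, and that of H2B was -6.29. With all libraries scaled to one distribution the median of all genes moved to -0.60 and 33.5% instead of 22.4% of its calls were higher, while the cluster genes again gave 7 lower and 1 higher, though Hist1h2ad was no longer called (adjusted p = 0.0668) and Hist1h2ap turned to -0.03. Polysome two-cell M libraries held 9542 to 12042 genes above the floor, against 12625 to 13480 in two-cell, and oocyte markers summed to 49.1 to 187 FPKM against 493 to 553, and the part of either in these differences was not tested. In such bulk samples fewer cells with an mRNA and less of it per cell cannot be told apart.

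The count for two-cell M was 4 without polysome two-cell C and 5 without polysome two-cell M C, and in a fit of these 6 libraries alone 4 genes fell, all H2B, and 1 rose (20.9% of all genes called), with Hist1h3f not called (adjusted p = 0.0836). Calls that ended without 1 library were those of Hist1h2bk (without two-cell M B, adjusted p = 0.113), Hist1h4i (without two-cell B, 0.0604, or C, 0.0614), Hist2h2bb (without two-cell C, 0.0588, or two-cell M A, 0.0678, or C, 0.0706), Hist1h2ad (4 libraries, up to 0.111) and Hist3h2ba (5 libraries, up to 0.186, and with 0.1 FPKM added before the log, 0.0675).

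From the interphase zygote to the interphase two-cell embryo 5 cluster genes rose and 2 fell in polysomes, 18.4% of the 38 against 16.0% of all genes called. This contrast was added after earlier results were known. Hist1h2ap rose by 6.93 ± 0.53 on the log2 scale (adjusted p = 3.90e-10, limma), from 10.6 to 18.7 FPKM in zygotes to 1240 to 2758 FPKM. The H2A genes Hist1h2ae and Hist1h2an were listed at the floor in all 3 zygote libraries and had 5.56, 15.2 and 1.70 FPKM (adjusted p = 0.00334) and 1.99, 7.42 and 0.336 FPKM (adjusted p = 0.0185) in two-cell. Hist1h2ao rose from the floor, the floor and 0.174 FPKM to 2.54, 8.65 and 3.45 FPKM (7.35 ± 1.80, adjusted p = 0.00534). The fifth was Hist1h4d, which rose from 1.11, 0.482 and 1.94 to 7.68, 29.4 and 15 FPKM (3.89 ± 1.12, adjusted p = 0.0168). None of the 5, which had been selected as called, had overlapping groups, and the share of all genes without overlap was not computed. The linker histone gene Hist1h1d fell from 0.853, 0.895 and 1.03 FPKM to 0.0166, 0.0680 and the floor (-5.36 ± 1.29, adjusted p = 0.00474), and Hist1h2ac by 4.22 (adjusted p = 0.0449).

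The median of the 38 genes from zygote to two-cell was 0.12 while that of all genes was -0.98, with class medians of 1.24 for H2A, 2.91 for H4, -0.48 for H3, -0.80 for H2B and -3.02 for H1. The 6 libraries alone gave 10 higher and 4 lower (33.8% of all genes called), with Hist1h2ap among them. The count was 4 without polysome zygote C. Hist1h4d was lost without polysome two-cell B (adjusted p = 0.0783) or zygote C (0.0907), Hist1h2an without two-cell B (0.0911) or any 1 zygote library (0.0550 to 0.0561), and Hist1h2ac without any 1 of the 6 (0.0621 to 0.17) or with no minimum (0.0597). Hist1h2ac was also lost with the replicate letter as a block. In the non-polysome fraction Hist1h2ap had 55.2 to 99.6 FPKM in zygotes and 6116 to 7357 FPKM in two-cell, a step that was not tested there.

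Against GV oocytes the 2 embryo interphases differed. Hist1h2ap was the only cluster gene called between GV and zygote, higher in GV by 2.82 ± 0.53 (adjusted p = 0.000703), against 5.61% of all genes called. Its GV libraries (104, 292 and 34.4 FPKM) all lay above the zygote libraries (10.6, 14.9 and 18.7 FPKM). The count was 2 without polysome GV A or without polysome GV C, and 3 higher and 5 lower in the 6 libraries alone (31.0%). Between GV and two-cell 2 cluster genes were higher in GV and 4 higher in two-cell, against 16.7% of all genes. Under quantile normalization these were 2 and 10 (19.5% of all genes called), and in the 6 libraries alone 1 and 8 (20.6% of all genes called). The linker genes were those higher in GV, Hist1h1d by 4.57 (adjusted p = 0.0144) and Hist1h1e by 6.22 (adjusted p = 0.00550). Higher in two-cell were Hist1h2ap (-4.11 ± 0.53, adjusted p = 2.29e-06), Hist1h2ae (-7.32, adjusted p = 0.0157), Hist1h4a (-4.19, adjusted p = 0.00245) and Hist1h4c (-4.43, adjusted p = 0.0441). Hist1h4c had 2.18, 4.45 and 0.718 FPKM in GV and 27.2, 68.4 and 37.1 FPKM in two-cell. Over the 38 genes the median was -1.94 where that of all genes was 0.85. Hist1h1e lost its call in the 6 libraries alone (adjusted p = 0.0899) and without polysome two-cell A (3.59, adjusted p = 0.0753), Hist1h1d without polysome two-cell C, GV A or GV B (0.0540 to 0.0696), Hist1h2ae without two-cell B, GV A or GV B (0.0678 to 0.0774) and Hist1h4c without any 1 of 5 libraries (0.0703 to 0.17).

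MII oocytes were then compared with the M-phase embryos. MII exceeded zygote M in 3 cluster genes, with 12.4% of all genes called. These were Hist1h2ac (5.27, adjusted p = 0.0141), Hist1h4b (5.88, adjusted p = 0.0483) and Hist3h2a, which is listed at the floor in all zygote M libraries and had 2.62, 2.93 and 4.89 FPKM in MII (adjusted p = 0.00515). The 38 genes had a median of 2.68, against 0.46 over all genes, and 31 were positive. Since some of the 38 are near-identical copies, their signs may not be independent of one another. Under quantile normalization the median of all genes was -0.08. With 0.1 FPKM added before the log 5 cluster genes were called, against 20.6% of all genes. In the 6 libraries alone 22 cluster genes were higher and 1 lower in MII, against 40.6% of all genes called. The count was 1 without polysome MII A, and Hist1h4b lost its call without any 1 of 5 libraries (adjusted p = 0.103 to 0.205) and Hist1h2ac without MII A (0.0625), zygote M B (0.0884) or zygote M C (0.0815). Hist1h2ap, at 56.1 to 111 FPKM in MII and 20.0 to 53.3 FPKM in zygote M, differed by 1.45 ± 0.53 and was not called (adjusted p = 0.07). It was called without zygote M B (0.0389), in the 6 libraries alone (0.0328) and with 0.1 FPKM added before the log (0.0498).

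MII against two-cell M gave 10 called cluster genes, 8 higher in MII and 2 lower, 26.3% of the 38 against 53.0% of all genes. Higher in MII were 4 H2B genes (Hist1h2ba by 9.39, adjusted p = 0.000102, Hist1h2bk by 8.24, adjusted p = 0.00289, Hist1h2bh and Hist3h2ba), 3 H3 genes and Hist1h1d. Of the H3 genes Hist1h3g had 29.3, 32.6 and 15.7 FPKM in MII and the floor, the floor and 12 FPKM in two-cell M (7.86, adjusted p = 0.0119), Hist1h3f differed by 7.03 (adjusted p = 0.00137) and Hist1h3e by 5.38 (adjusted p = 0.0419). Higher in two-cell M were Hist1h2ap (-5.20 ± 0.53, adjusted p = 6.59e-09) and Hist1h2ao, with 9.44, 12.8 and 11.4 FPKM in two-cell M against the floor, the floor and 0.195 FPKM in MII (-8.69 ± 1.80, adjusted p = 0.000239). No H4 gene was called. The class make-up differed in a fit of the 6 libraries alone, where 6 were higher and 4 lower (49.0% of all genes called). There Hist1h3e (adjusted p = 0.141), Hist1h3f (0.0555) and Hist1h3g (0.0656) were not called, while Hist1h4b was higher in MII (0.0135) and Hist1h4i (0.00740) and Hist2h3b (0.00878) were lower. Over all libraries Hist1h3g was lost without two-cell M A (adjusted p = 0.0772) or B (0.0743), and Hist1h3e without any 1 of 5 libraries (0.0721 to 0.201), with 0.1 FPKM added before the log (0.0923), with no minimum (0.0710) and under quantile normalization (0.0743).

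The polysome and non-polysome fractions of the same stage were then set beside each other. A level in polysomes relative to the non-polysome fraction is a share of each library, not the share of a gene's mRNA on ribosomes. Hist1h2ap was lower in polysomes in 4 stages. In GV the log2 difference was -1.76 ± 0.53 (adjusted p = 0.0493), in zygotes -2.33 ± 0.53 (adjusted p = 0.0150), in zygote M -2.33 ± 0.53 (adjusted p = 0.0170) and in two-cell -1.94 ± 0.53 (adjusted p = 0.0118, limma). It was the only cluster gene called in GV (4.96% of all genes called), zygotes (1.38%) and zygote M (1.92%). Its groups overlapped in GV (34.4 to 292 against 202 to 520 FPKM), but not in zygotes (10.6 to 18.7 against 55.2 to 99.6), zygote M (20.0 to 53.3 against 111 to 282) or two-cell (1240 to 2758 against 6116 to 7357). In MII it lay at -0.94 (adjusted p = 0.946) and in two-cell M at 0.23 (adjusted p = 0.858), and in neither was it called. Whether the difference itself changed with the cell cycle was tested as well and was not called for any pair (for the two-cell stages 2.17 ± 0.74, adjusted p = 0.0849).

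**Figure D5:**
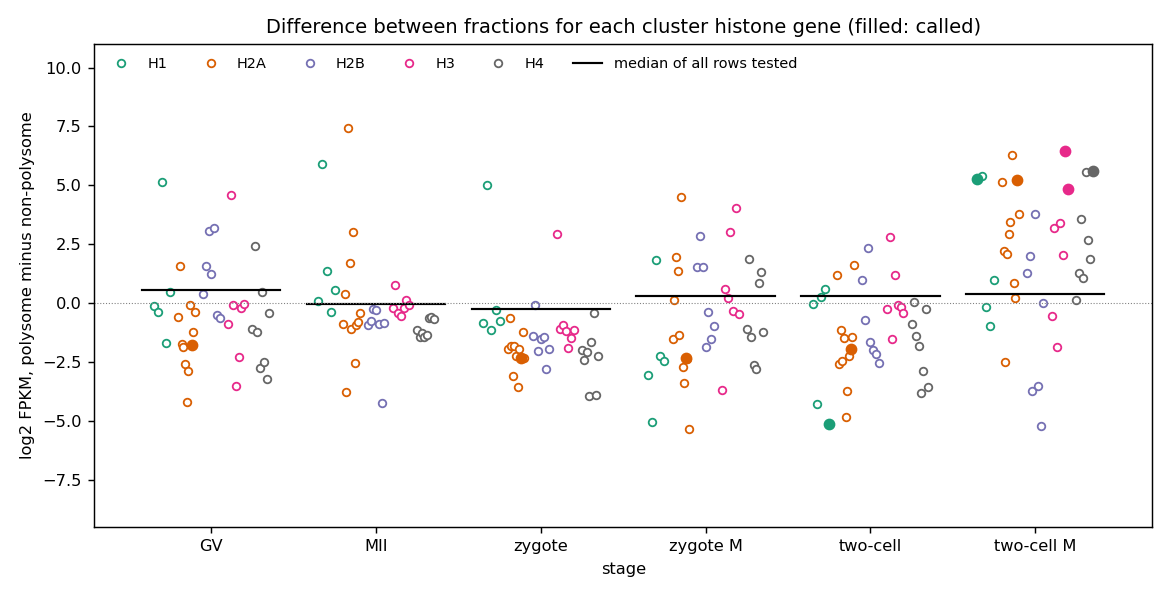
Log2 FPKM in polysomes minus the non-polysome fraction for each of the 38 tested cluster genes by stage, coloured by class. Filled points were called and black lines are the medians of all 7967 genes, below which Hist1h2ap lies in all 6 stages.

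The calls of Hist1h2ap between fractions were near the threshold. That of GV was lost without non-polysome GV A (adjusted p = 0.126) or B (0.260) or polysome GV A (0.138) or C (0.317, difference -0.98), and in a limma fit of the 6 libraries alone (0.229). In that fit 0 cluster genes and 4.26% of all genes were called. An unadjusted p under 0.05 was found there for 3 of 38, against 24.4% of all genes. The GV call was also lost with no minimum and under quantile normalization, in all in 7 of 11 alternatives. That of zygotes was lost without non-polysome zygote B (0.139) or D (0.0535) or polysome zygote B (0.108) or C (0.0625). That of zygote M was lost without non-polysome zygote M B (0.0809) or polysome zygote M A (0.0746) or C (0.0957) and in the 6 libraries alone (0.0893), and 2 cluster genes were called without non-polysome zygote M A. That of two-cell was lost without polysome two-cell A (0.0618). In every one of these fits the difference stayed negative.

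Besides Hist1h2ap, 1 cluster gene was called in these 5 stages, Hist1h1e in two-cell. The median of the 38 genes was -0.48 in GV, -0.58 in MII, -1.73 in zygotes, -1.04 in zygote M and -1.41 in two-cell, where the medians of all genes were 0.56, -0.04, -0.24, 0.31 and 0.28. In zygotes 2 of 38 were positive. A fit of the 6 zygote libraries alone called 18 of them lower and 1 higher, Hist1h1b, against 20.1% of all genes. In MII no cluster gene was called by limma (0.753% of all genes), with 2 of 38 at an unadjusted p under 0.05 (6.14% of all genes). In the 6 MII libraries alone 2 were higher and 1 lower (6.45% of all genes called). For zygote M those 6 libraries alone gave 2 lower, Hist1h1a and Hist1h1e (1.82%), and Hist1h2ap was not among them (adjusted p = 0.0893). In two-cell the second call, with 16.1% of all genes called, was Hist1h1e at the floor, 8.49 and 0.661 FPKM in polysomes against 11.7, 16.1 and 12.6 (-5.12 ± 1.54, adjusted p = 0.0231), and it was lost without polysome two-cell A (0.246) or non-polysome two-cell B (0.0594). In the 6 two-cell libraries alone Hist1h1e was also lost (0.264), and Hist1h2ap, Hist1h2bk and Hist2h2aa1 were lower (6.89% of all genes called). The count over all libraries was 4 without non-polysome two-cell A, 1 without non-polysome two-cell B and 0 without polysome two-cell A.

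Two-cell M was the stage with the opposite sign. The median of the 38 genes was 2.06, against 0.37 over all genes, and 5 were called, all higher in polysomes, with 14.8% of all genes called. They were Hist2h3b (100, 26.1 and 21.4 FPKM in polysomes against the floor, 11.1 and 0.729), Hist4h4 (0.0280, 1.29 and 16.6 against the floor, the floor and 0.0508), Hist1h1a (66.6, 1.70 and 36.6 against the floor, 78.7 and 0.0888), Hist2h2aa1 (82.9, 43.7 and 45.0 against 120, the floor and 2.70) and Hist2h3c2 (19.4, 30.0 and 14.5 against the floor, 3.60 and 9.91). The log2 differences ran from 4.84 for Hist2h3c2 (adjusted p = 0.0140) to 6.47 for Hist2h3b (adjusted p = 0.0146). Groups overlapped for Hist1h1a, Hist2h2aa1 and Hist4h4, and each of the 5 differences contains non-polysome libraries at the floor. The libraries of this stage held the fewest genes above the floor (8538 to 9271 in the non-polysome fraction), and the part of this in the differences was not tested. In a limma fit of these 6 libraries alone 0 cluster genes were called, against 0.238% of all genes. In that fit 0 of 38 had an unadjusted p under 0.05, against 13.9% of all genes. Each of the 5 lost its call without at least 1 library. The count was 2 without polysome two-cell M A and 9 without polysome two-cell M B, and the shares of all genes called in those fits were not computed. Without non-polysome two-cell M A the difference of Hist2h3c2 was 1.77 (adjusted p = 0.122), of Hist2h3b 3.75 (0.141) and of Hist1h1a 2.60 (0.261). Without non-polysome two-cell M B that of Hist2h2aa1 was 1.6 (adjusted p = 0.217), and without polysome two-cell M C that of Hist4h4 was 3.47 (0.140). Hist1h1a also lost its call without non-polysome two-cell M C (adjusted p = 0.120) or polysome two-cell M A (0.124) or C (0.109), with 0.1 FPKM added before the log (0.0564) and with no minimum (0.0615). Its call was lost as well with stage and replicate letter as a block. Calls were also lost for Hist2h3b (0.0567) and Hist2h2aa1 (0.0627) without polysome two-cell M A.

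The change between interphase and M-phase was also compared between the fractions and between the divisions. Of the 38 genes 0 differed between fractions for MII against GV (0.163% of all genes called) or for zygote M against zygote (0.289%), and 1, Hist4h4, for two-cell M against two-cell (5.75% of all genes; 9.20, adjusted p = 0.00872). By limma the unadjusted p was under 0.05 for 1, 3 and 14 of 38 in these, in the same order. For all genes the shares at that cut were 7.37%, 7.52% and 19.2%. Between divisions, the change from GV to MII exceeded that from zygote to zygote M in 2 cluster genes (9.51% of all genes called) and that from two-cell to two-cell M in 7 (23.5%), 4 of which were H2B genes. The change in the zygote and in the two-cell embryo differed for 1 (23.7%). The H2B gene Hist1h2ba shows the second of these, as it went from 0.117 to 4.31 FPKM in GV to 11.9 to 22.0 FPKM in MII, and from 2.53 to 8.45 FPKM in two-cell to at most 0.147 FPKM in two-cell M (difference of the changes 11.46 ± 2.55, adjusted p = 0.00143, limma). The comparisons between divisions were chosen after the data had been seen. For MII against GV minus zygote M against zygote the count was 22 in a fit of these 4 groups alone, where 44.4% of all genes were called. Over all libraries it was 4 without polysome GV A and 1 without any 1 of polysome MII A, MII B, GV B, zygote B, zygote C, zygote D or zygote M B. For the zygote against the two-cell embryo it was 4 in the 4 groups alone (30.5% of all genes called), and over all libraries 3 without polysome two-cell M B and 2 without any 1 of polysome two-cell B, two-cell M A, two-cell M C, zygote M B or zygote M C. The fraction comparison for two-cell M against two-cell gave 6 without non-polysome two-cell M C, 5 without non-polysome two-cell A or two-cell M B, 4 without non-polysome two-cell M A or polysome two-cell M B, 3 without polysome two-cell B and 2 without polysome two-cell C or two-cell M C. With stage and replicate letter as a block it gave 4 (5.32% of all genes called). It gave 3 with 0.1 FPKM added before the log (4.79%) and 2 under quantile normalization (5.33%).

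Quantile normalization, which gives all libraries 1 distribution of log2 values, moved the share of higher genes among all genes called by over 10 percentage points in several comparisons. Within polysomes it went from 69.1% to 57.4% for GV against zygote, from 73.7% to 61.1% for GV against two-cell, from 72.5% to 53.7% for MII against zygote M and from 85.2% to 71.4% for MII against two-cell M. For polysome against non-polysome it went from 52.7% to 40.8% in GV and from 74.5% to 52.5% in zygote M. For the differences of changes between fractions it went from 100% to 87.5% in zygote M against zygote and from 55.7% to 39.5% in two-cell M against two-cell, and for MII against GV minus two-cell M against two-cell from 79.5% to 64.5%. The median of all genes moved from 0.85 to 0.47 for GV against two-cell, from 0.46 to -0.08 for MII against zygote M and from 2.64 to 1.47 for MII against two-cell M.

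Genes that act on histone mRNA and protein were followed as fixed lists. Slbp, the stem-loop binding protein, had 12.7, 9.19 and 26.0 FPKM in polysome GV, 21.1, 18.6 and 12.6 in MII, 22.3, 21.2 and 22.2 in zygotes and 20.4, 8.40 and 17.0 in zygote M. It had 4.72, 2.5 and 5.13 FPKM in two-cell and 1.67, 0.928 and 3.58 in two-cell M, below all earlier libraries. From zygote to two-cell it fell by 2.48 on the log2 scale (adjusted p = 0.0230, limma), the stage at which Hist1h2ap rose. Slbp was lower in polysomes than in the non-polysome fraction in GV (-3.09, adjusted p = 0.0145, limma) and in two-cell (-2.63, adjusted p = 0.0172). Hist1h2ap was called lower there and also in zygotes and zygote M. Whether the levels of Slbp bear on those of Hist1h2ap was not tested. Of the 11 tested regulators of histone mRNA (17 listed) 4 fell from zygote to two-cell, Slbp among them with the cleavage factor genes Cpsf2 (-4.34) and Cpsf3 (-6.68) and the cap-binding gene Ncbp2 (-3.30), and 0 rose, where 16.0% of all genes were called, 782 of them lower and 490 higher. From MII to two-cell M 7 of 11 were lower and 0 higher, where 53.0% of all genes were called and 3598 of those 4224 were lower in two-cell M.

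Of the 11 tested histone chaperones (13 listed) 0 were called from zygote to two-cell, where 16.0% of all genes were called. An unadjusted p under 0.05 (limma) was found for 5 of them and for 29.7% of all genes. In two-cell M against two-cell 2 rose and 3 fell, where 36.3% of all genes were called, 648 higher and 2242 lower. Among the chaperones Nasp, which binds linker histone and H3-H4, lay at 2.32 (adjusted p = 0.0189) and Asf1a, an H3-H4 chaperone, at -3.67 (adjusted p = 0.00264). The third list holds histone variants whose genes lie outside the clusters. Of 10 tested (12 listed) 4 rose from GV to MII, where 6.11% of all genes were called, Cenpa (2.45), H2afv (3.03), H2afx (6.52) and H2afz (2.22). In two-cell against zygote H2afz rose by 2.85 (adjusted p = 0.000386) while H3f3b, an H3.3 gene, fell by 1.37 (adjusted p = 7.91e-05). H3f3b was lower in polysomes in two-cell by 2.96 (adjusted p = 3.32e-10), with 29.4, 34.7 and 30.7 FPKM against 250, 240 and 245 FPKM, and 5 of the 10 variants were called lower there and 0 higher, where 16.1% of all genes were called, 508 lower and 772 higher.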

How the data were processed

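The authors trimmed the 150-base paired reads of SMART-Seq v4 libraries with Trim Galore (0.4.1), mapped them to GRCm38 with STAR (2.5.3a) and quantified RefSeq genes, and their processing notes also name Partek, whose version is not given in the sources used here. The deposited table holds normalized FPKM values of 23125 genes in 36 libraries. It is taken as deposited, with its floor of 0.01 FPKM. How reads with several matches were assigned and how the floor was set are not given in the sources used here. The table also carries no read totals, so the precision rests on the 3 libraries per group. Columns that spell MII as Mll were matched to the MII samples by title. A table of the authors' own GV and MII comparison, not used here, appears to name these groups the other way round, and the sample titles were followed. Of the 38 samples 2 zygote samples have no column in the table and were not analysed here.

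Log2 FPKM values were fitted with limma (3.58.1, R 4.3.3) as 12 group means over the 36 libraries, with an intensity trend, for the 7967 rows whose geometric mean was at least 0.1 FPKM. Tests were two-sided, and a gene was called at a Benjamini-Hochberg adjusted p under 0.05 over all rows together with a fold change over 2. The fit was tested on simulated data with normal noise and no floor, which does not show how it performs on values at the floor. Partek's own test was not used here. Levels, sequences and figures were handled with Python 3.11.15, numpy 2.4.6, pandas 2.3.3 and matplotlib 3.10.9.

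Genes named with values were the up to 5 members of each class with the highest mean FPKM over the polysome libraries, up to 5 called members in each direction of each comparison, and the testis-type members. The cluster genes, the lists of histone mRNA regulators, histone chaperones and histone variants, and the marker lists were chosen with earlier results of these data known. The contrast of two-cell against zygote and the 3 contrasts between divisions were added after the data had been seen. Alternatives were 0.1 FPKM added before the log, no minimum, quantile normalization, the compared groups alone, the replicate letter as a block and each library left out in turn.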

Additional observations from a re-analysis of the deposited data

Results flagged for a closer look

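For 11 values of single cluster genes a change differed between fractions or between divisions by limma's interaction contrast, adjusted over all 7967 genes. All groups have 3 libraries, so no single sample was tested as standing apart, and the contrasts between divisions were chosen after the data had been seen. The cause of none of these differences was tested.

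Hist4h4 changed differently in the fractions from two-cell to two-cell M, by 9.20 on the log2 scale (adjusted p = 0.00872, limma). In polysomes it had 0.573, 0.0432 and 2.00 FPKM in two-cell and 0.0280, 1.29 and 16.6 in two-cell M, so these groups overlapped. The call was lost in 1 of 17 alternatives, the fit of the 4 groups alone (adjusted p = 0.285). In the non-polysome fraction it had 5.54, 5.23 and 2.95 FPKM in two-cell and the floor, the floor and 0.0508 in two-cell M.

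For oocytes against zygotes the change from GV to MII exceeded that from zygote to zygote M by 8.48 for the H2A gene Hist1h2ah (adjusted p = 0.0352, limma), a call lost in 9 of 17 alternatives. For the H2A gene Hist3h2a the difference was 11.13 (adjusted p = 0.0107), a value set by the floor, where all 3 zygote M libraries lie, and so neither a measured size nor a bound.

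Against two-cell M and two-cell the change from GV to MII was larger for 7 genes. The H2B genes Hist1h2ba (11.46, adjusted p = 0.00143, limma), Hist1h2bh (10.01, adjusted p = 0.00338) and Hist1h2bk (9.93, adjusted p = 0.0211) had the largest differences, and that of Hist1h2bk was not called without polysome two-cell M B (7.71, adjusted p = 0.0800). The difference was 8.86 for Hist1h3f (adjusted p = 0.00874) and 5.37 for Hist1h4a (adjusted p = 0.00371). It was 7.96 for Hist1h4b (adjusted p = 0.0382) and 8.46 for Hist2h2bb (adjusted p = 0.0464), both lost in 12 of 17 alternatives. For the H2A gene Hist1h2ac the change from zygote to zygote M was lower than that from two-cell to two-cell M by 6.94 (-6.94, adjusted p = 0.0145).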

How the results depend on the processing

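Depth is unknown and many cluster genes lie at the floor in some libraries. Fits that pool the spread over all stages and fits of the compared groups alone called different numbers of genes, and the cause was not tested. The calls of Hist1h2ap for GV against zygote, GV against two-cell, MII against two-cell M and two-cell against zygote, of Hist1h4a for MII against GV and GV against two-cell, and of Hist1h2ba and Hist1h2bh for two-cell M against two-cell were kept in all alternatives run for them. With 0.1 FPKM added before the log the count of called cluster genes was 2 for zygote M against zygote (8.84% of all genes called), 12 for GV against two-cell (24.5%) and 5 for MII against zygote M (20.6%). It was 4 between fractions in two-cell (18.4%) and 3 for the difference of changes between fractions in two-cell embryos (4.79%). For MII against GV minus zygote M against zygote it was 7 (17.9%), and for zygote M against zygote minus two-cell M against two-cell 2 (25.9%). With no minimum it was 0 between fractions in GV (1.88% of all 23125 genes called) and 4 in two-cell (6.23%). For the same contrasts between divisions it was 1 (5.09%) and 2 (9.25%). Calls of single genes lost with no minimum included those of Hist1h2ap between fractions in GV (adjusted p = 0.0981, limma), Hist1h4c for GV against two-cell (0.0721), Hist1h4b for MII against zygote M (0.0878) and Hist1h2ad (0.0540) and Hist3h2ba (0.0614) for two-cell M against two-cell. Under quantile normalization it was 2 for zygote M against zygote (9.70% of all genes called), 2 for GV against zygote (9.38%) and 12 for GV against two-cell (19.5%). It was 0 between fractions in GV (6.30%), 2 in zygotes (1.51%) and 2 for the difference of changes between fractions in two-cell embryos (5.33%). For the same contrasts between divisions it was 4 (14.6%) and 3 (27.5%). With the compared groups alone it was 9 for MII against GV, 16 for zygote M against zygote, 5 for two-cell M against two-cell, 8 for GV against zygote, 23 for MII against zygote M, 14 for two-cell against zygote, and 0, 3, 19, 2 and 0 between fractions in GV, MII, zygote, zygote M and two-cell M. It was then 2 for the difference of changes between fractions in zygotes, and 22 and 4 for the contrasts between divisions. Same-letter libraries of the 2 fractions deviated together with a mean correlation of 0.076 (-0.006 to 0.167, 6 of 18 over 0.1). The study's supplement gives the letters A, B and C as replicates. No source used here says in words that a letter ties the 2 fractions to 1 gradient, so the block was not made part of the reported fit. With the letter as a replicate block the count was 2 for zygote M against zygote minus two-cell M against two-cell (21.3% of all genes called). With stage and letter as the block it was 2 between fractions in zygotes (1.31%) and 4 for the difference of changes in two-cell embryos (5.32%). That block also ended the call of Hist1h1a between fractions in two-cell M (adjusted p = 0.0867, limma), and the letter block that of Hist1h2ac for two-cell against zygote (0.0623), while Hist1h2ap gained one for MII against zygote M (0.0457). Hist1h2ap turned its sign in 3 alternatives, to -0.03 under quantile normalization for two-cell M against two-cell, to -0.02 between fractions in two-cell M without non-polysome two-cell M A (-0.02 to 0.57 over the left-out libraries), and to 0.47 for MII against GV without polysome GV B (-1.07 to 0.47). With 1 library left out the counts within polysomes ran from 1 to 4 for MII against GV, 0 to 1 for zygote M against zygote, 4 to 8 for two-cell M against two-cell, 1 to 2 for GV against zygote, 4 to 6 for GV against two-cell, 1 to 3 for MII against zygote M, 8 to 12 for MII against two-cell M, 4 to 6 for two-cell against zygote and 15 to 20 for the stage effect. Between fractions they ran from 0 to 1 in GV, 0 to 0 in MII, 0 to 1 in zygotes, 0 to 2 in zygote M, 0 to 4 in two-cell and 2 to 9 in two-cell M. For the differences of changes they ran from 1 to 6 between fractions in two-cell embryos, and from 1 to 4, 5 to 8 and 1 to 3 for the 3 contrasts between divisions. The share of all genes called was not computed for fits with a library left out. For single genes 344 of 456 values with a library left out and 283 of 325 others kept their direction and their side of the threshold.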
